A study of Urocitellus parryii with 3 samples.

Results

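mmu-miR-224 and mmu-miR-452 are the mouse array entries for a pair of microRNAs (miRNAs) that lie close together on the X chromosome, within introns of Gabre, the gene of the epsilon subunit of the GABA-A receptor. They were taken as the 2 members here out of 567 mouse miRNA entries on the array, by their names. The pair was chosen on values of these same arrays: the spot intensities and detection marks of the 3 stages were known, and so was the difference of miR-452 between early arousal and post-reproduction. The values below therefore describe these arrays, and no test was made.

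A miRNA is a short RNA cut from a hairpin precursor, and it directs an Argonaute protein to messenger RNAs that carry a match to its seed, the bases near its 5′ end. A miRNA within an intron is usually cut from the transcript of its host gene, so that miRNAs of the same introns can be made together. In other work miR-224 is known for its high level in human liver tumours and for its response to TGF-beta in mouse ovarian granulosa cells. miR-452 is known from mouse neural crest cells, where it acts on signals that shape the face. Gabre itself is a receptor gene of the nervous system and other tissues and is not a liver marker.

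The RNA came from livers of arctic ground squirrels (Urocitellus parryii), a wild hibernator with no transgene, allele or drug named in the labels. The early arousal group had begun to rewarm from torpor, the late torpor group (spelled "late topor" in the labels) was near the end of a bout of low body temperature, and the post-reproduction group was outside hibernation. Each stage was 1 pool of liver RNA on 1 Cy3-labelled mouse miRNA array. The labels name neither the age nor the number of the animals, so stage, pool and array cannot be told apart and the spread between animals is unknown.

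The targets of both members lay on mouse chromosome X in the coordinates of the files (mm9). The 2 probes for miR-452 covered chrX:69507610-69507627 (18 bases) and chrX:69507610-69507626 (17 bases), with 10 spots each per array. The 4 probes for miR-224 began at position 69506424 and ended at 69506441, 69506442, 69506443 and 69506444, which gives targets of 18, 19, 20 and 21 bases, with 5 spots each per array. Between the targets of the pair lay 1165 bases. The RefSeq gene table of the squirrel's own genome (mUroPar1.hap1) also has Gabre on its chromosome X, with Magea4 as the next protein-coding gene on one side. How well the mouse probes match the squirrel's miRNAs was not analysed here.

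The pair parted at detection. After spots marked as outliers had been left out, a probe was called detected if the scanner program put over 50% of the rest well above background. mmu-miR-452 was detected by both probes on all 3 arrays, while mmu-miR-224 was detected by 0 of its 4 probes on any. Of all mouse entries, 26.8% were detected in early arousal, with 27.9% in late torpor and 25.2% in post-reproduction. In a bulk sample such as this, fewer cells that hold a miRNA and less of it per cell cannot be told apart.

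miR-452 was brightest in early arousal, somewhat dimmer in late torpor and dimmest in post-reproduction. The kept spots of its 18-base probe had a lowest, median and highest deposited intensity of 37.0, 44.6 and 49.6 units in early arousal (10 spots), of 31.2, 36.3 and 41.2 units in late torpor (10 spots), and of 19.2, 24.3 and 29.8 units in post-reproduction (9 spots). Those of the 17-base probe had 31.3, 34.4 and 42.1 units in early arousal (10 spots), 24.5, 28.3 and 32.0 units in late torpor (9 spots), and 14.3, 18.3 and 23.1 units in post-reproduction (9 spots). For either probe, every kept spot of both hibernation stages was thus above every kept spot of post-reproduction, and the spots of early arousal and late torpor overlapped. All 20, 19 and 18 kept spots, in the order early arousal, late torpor and post-reproduction, were marked well above background.

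The mean differed between any pair of stages by more than the SD among spots. The 18-base probe averaged 44.2 ± 3.88 units in early arousal (SD, 10 spots), 36.6 ± 3.41 units in late torpor (SD, 10 spots) and 23.7 ± 3.57 units in post-reproduction (SD, 9 spots). The 17-base probe averaged 35.1 ± 3.81, 28.6 ± 2.67 and 18.6 ± 2.66 units in the same order of stages (SD, 10, 9 and 9 spots). Spots of 1 array share 1 labelled RNA pool, so these SDs hold no difference between animals or pools. In post-reproduction 1 spot of the 18-base probe was left out as an outlier. At 38.7 units it lay inside the range of the early arousal spots. A left-out post-reproduction spot of the 17-base probe had 26.3 units, above the lowest kept late torpor spot of that probe at 24.5 units. The lack of overlap with post-reproduction thus holds for kept spots alone.

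**Figure D1:**
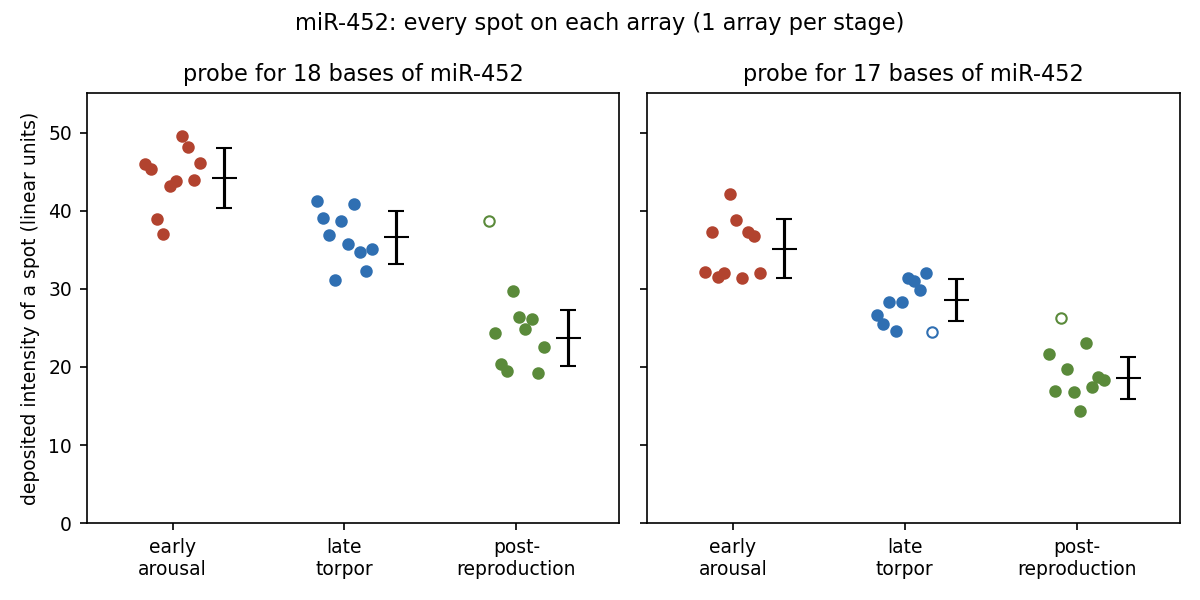
Deposited intensity of every miR-452 spot (y axis, linear units from 0) on the early arousal, late torpor and post-reproduction arrays (x axis), one panel per probe. Filled points are kept spots, open points are spots left out as outliers, and bars are the mean and SD of the kept spots. The kept post-reproduction spots, 19.2 to 29.8 units for the 18-base probe and 14.3 to 23.1 units for the 17-base probe, lie below all kept spots of the other stages.

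To compare arrays, the log2 intensity of each spot was averaged per probe, the 75th percentile over the 250 probes detected on every array was subtracted, and the probes of a miRNA were averaged. On that scale miR-452 stood at -3.16 ± 0.03 in early arousal, with -3.44 ± 0.03 in late torpor and -4.26 ± 0.05 in post-reproduction (SE from spots), below that percentile on each array. Between early arousal and post-reproduction the log2 difference was 1.10 ± 0.06, or 2.15-fold higher in early arousal (95% interval from spots 1.98 to 2.33). Between late torpor and post-reproduction it was 0.82 ± 0.06, or 1.77-fold higher in late torpor (1.63 to 1.92). Between early arousal and late torpor it was 0.28 ± 0.04, or 1.21-fold higher in early arousal (1.14 to 1.29).

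The separate probes gave nearly the same differences. Early arousal over post-reproduction was 1.09 ± 0.08 with the 18-base probe and 1.11 ± 0.08 with the 17-base probe. Late torpor over post-reproduction was 0.83 ± 0.08 and 0.82 ± 0.08, and early arousal over late torpor was 0.27 ± 0.06 and 0.29 ± 0.07, in the same order of probes. The probes end 1 base apart on the same target, so they are no independent readings of the miRNA. With the spots in the upper rows of the array alone, early arousal over post-reproduction was 1.03, and with those in the lower rows 1.14. The upper rows held only 6 kept spots in early arousal and 4 in post-reproduction, against 14 and 14 in the lower rows. No SE was computed for these values.

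Against all 135 measured mouse miRNAs, that is, those with a probe detected on every array, miR-452 ranked 4 from the top in early arousal over post-reproduction, 7 in late torpor over post-reproduction and 13 in early arousal over late torpor. A rule of size asked for a log2 difference of at least 1 that exceeded 2 SE and had one sign in all measured probes. In early arousal over post-reproduction 4 miRNAs passed it as higher (2.96%) and 1 as lower, with miR-452 the nearest to the limit among the higher ones. The next above it was miR-494 at 1.26 ± 0.03 and the next below, short of the rule, was miR-31* at 0.77 ± 0.04. In late torpor over post-reproduction, where 3 passed as higher (2.22%) and 0 as lower, and in early arousal over late torpor, where 2 passed as higher (1.48%) and 2 as lower, miR-452 fell short.

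Spots that do not overlap between arrays were common. In early arousal over post-reproduction 24.4% of the measured miRNAs had all their kept spots, after scaling, above those of post-reproduction in every measured probe. The share was 27.4% in late torpor over post-reproduction and 5.19% in early arousal over late torpor. miR-452 was among them in the first and the second of these comparisons. The lack of overlap was thus shared with many other miRNAs.

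**Figure D2:**
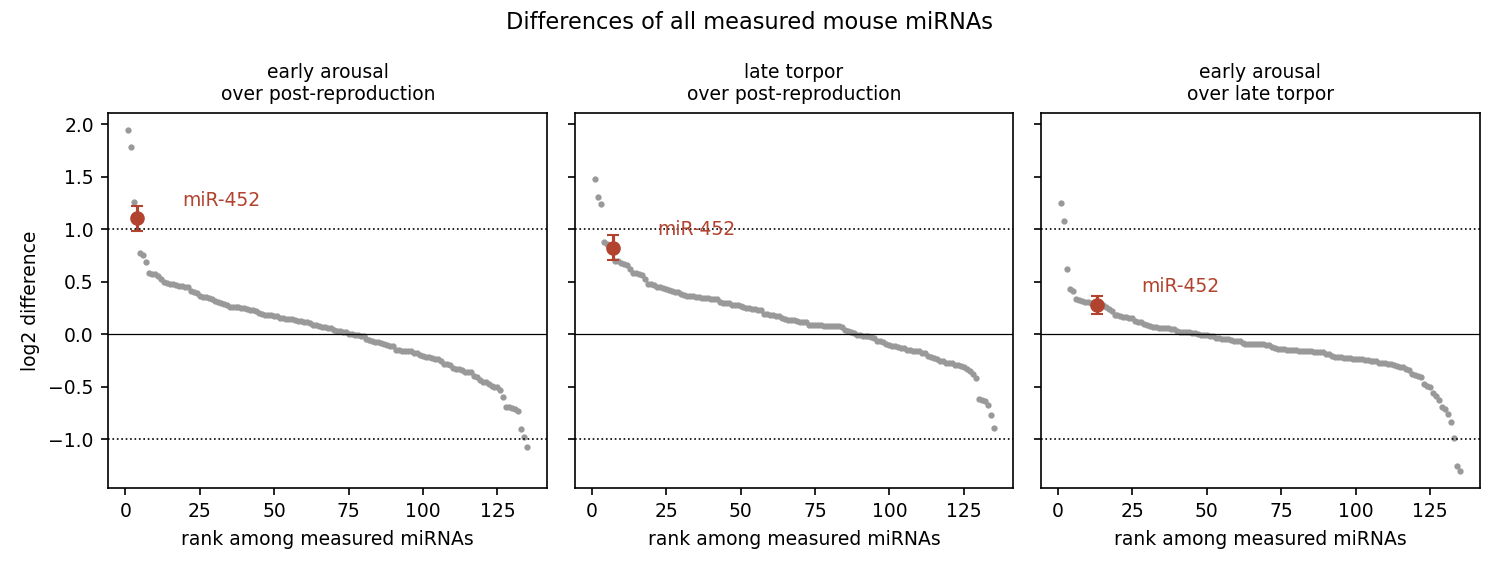
Log2 difference (y axis) of each of the 135 measured mouse miRNAs, ordered from highest to lowest (x axis, rank), in each comparison. Grey points are miRNAs, the red point is miR-452 with its 95% interval from spots, and dotted lines mark a difference of 1 in either direction. miR-452 ranks 4, 7 and 13 from left to right.

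The place of miR-452 against the other miRNAs did not hang on how whole arrays were scaled, whereas the size of its difference did. The median difference of all measured miRNAs was 0.062 in early arousal over post-reproduction, 0.13 in late torpor over post-reproduction and -0.094 in early arousal over late torpor. Less these medians, miR-452 stood at 1.04, 0.69 and 0.37 in that order. A scaling that shifts whole arrays leaves these values as they are by construction. Over the other ways of processing they ran from 0.97 to 1.13, from 0.62 to 0.77 and from 0.35 to 0.40, apart from the normexp background correction, which gave 0.38, 0.24 and 0.15. That correction adds 50 units to every spot, more than the mean intensity of either miR-452 probe on any array.

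The difference between early arousal and post-reproduction came to lie under the limit of 1 with some scalings. It was 0.75 with the 75th percentile over all mouse probes, 0.90 with the linear form of that percentile and 0.92 without scaling. It was 0.84 where every kept spot had to be well above background (strict detection), and 0.46 with normexp. Both percentiles over all mouse probes take in undetected ones, and only 25.2% to 27.9% of mouse entries were detected. The log2 form also takes in intensities at or below 0, set to the lowest signal well above background. It stayed above 0 under all 17 alternatives tried. The split of miRNAs past the rule moved as well. In that comparison the 4 higher and 1 lower became 2 and 8 with the percentile over all mouse probes, 3 and 3 without scaling and with the linear form, and 4 and 2 after quantile normalization and with the summed intensity. It was 5 and 5 with the program totals, 2 and 2 with strict detection, 2 and 0 with normexp, and 4 and 2 with outlier spots kept or the negative control median subtracted. In late torpor over post-reproduction the split of 3 and 0 became 1 and 6 with the linear form, and 3 and 1 with the percentile over all mouse probes, with the median, without scaling and with the summed intensity, 5 and 2 with the program totals and 3 and 2 with strict detection. In the same comparison it was 2 and 0 after quantile normalization and 1 and 0 with normexp. In early arousal over late torpor the split of 2 and 2 became 0 and 5 with the percentile over all mouse probes and 0 and 0 with normexp. It became 2 and 3 with the brightest probe of each miRNA alone, the program totals or the negative control median subtracted.

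**Figure D3:**
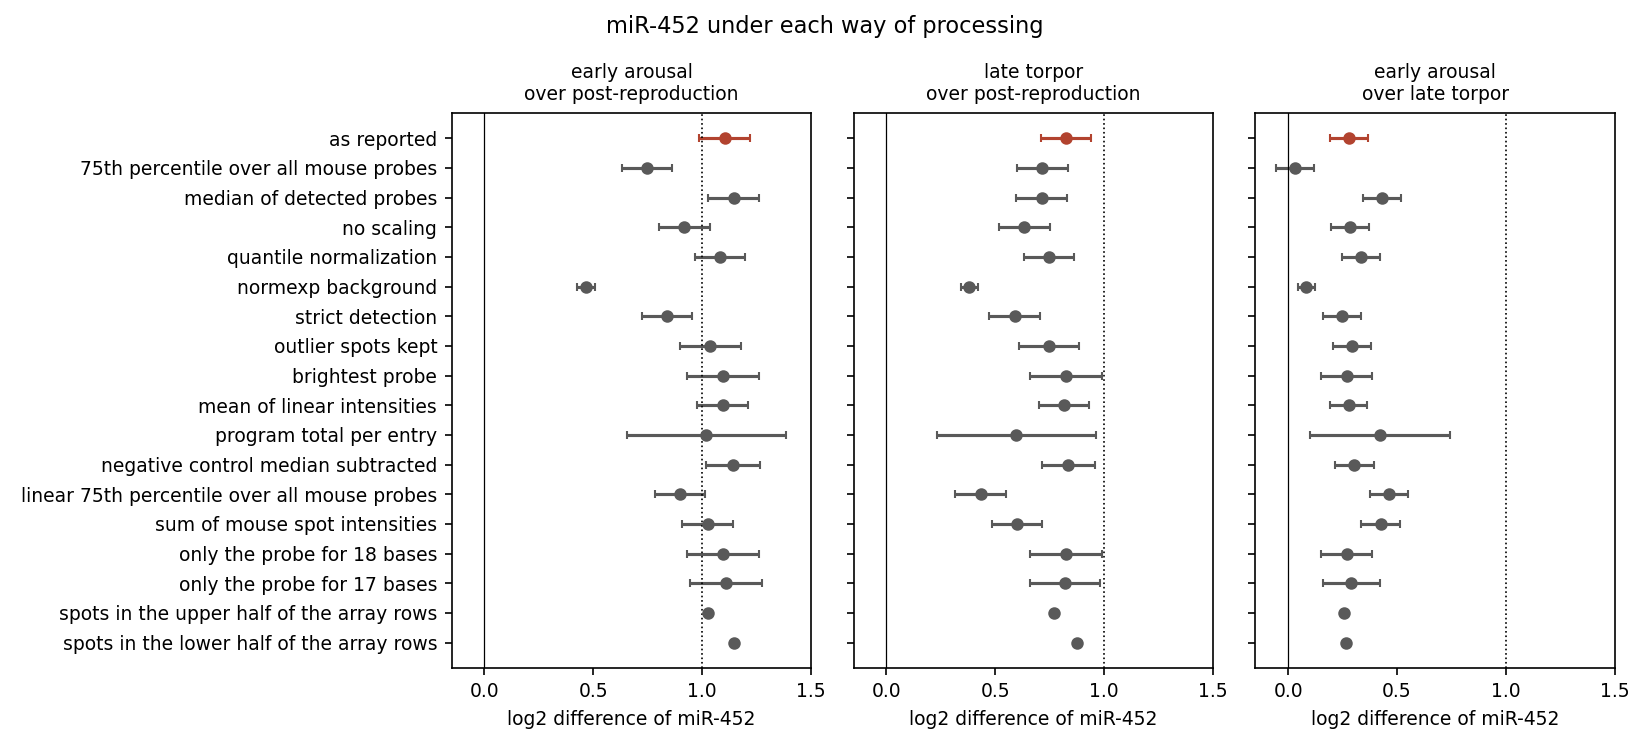
Log2 difference of miR-452 (x axis) in each comparison under each way of processing (rows), with the reported value in red and bars for the 95% interval from spots (none was computed for the spots of the upper or lower rows alone). The dotted line marks 1. All points lie above 0, from 0.46 to 1.14 on the left, 0.38 to 0.88 in the middle and 0.03 to 0.46 on the right.

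The scanner program's own totals per miRNA followed the same order. miR-452 had a total of 56.4 ± 4.51 units in early arousal, 46.7 ± 3.75 units in late torpor and 30.2 ± 3.06 units in post-reproduction (the program's error estimate, unscaled), and the program marked it as detected on each array. For miR-224 the totals were 0.346 ± 1.44, 2.20 ± 1.23 and 0.0458 ± 1.52 units in the same order of stages, and it was marked as not detected on each.

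The spots of miR-224 lay mostly in the range of the negative control spots. Its kept spots had a lowest, median and highest intensity of -3.17, 0.194 and 4.99 units in early arousal (19 spots), -3.29, 0.889 and 7.85 units in late torpor (20 spots), and -4.28, 0.389 and 4.51 units in post-reproduction (19 spots). These ranges overlapped. The lowest intensity of any miRNA spot marked well above background was 10.1 units in early arousal, 8.49 units in late torpor and 10.7 units in post-reproduction, and 0 kept spots of miR-224 passed it on any array. The means were 0.266 ± 1.83, 1.54 ± 2.61 and 0.0934 ± 2.08 units in that order of stages (SD over 19, 20 and 19 spots). No fold is given for miR-224, since it was not well above background on any array. A difference between stages was not detectable at this signal, which does not show that miR-224 was absent.

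The background was read from negative control spots with no outliers left out, unlike the kept spots of miR-224. Over 672 negative control spots per array the median was 1.36 units in early arousal, 1.69 units in late torpor and 1.21 units in post-reproduction. The middle 90% ran from -1.62 to 5.29, from -1.63 to 5.25 and from -2.32 to 5.31 units. The SD over these spots was 3.61, 4.13 and 11.6 units in that order. It was widest in post-reproduction, although the middle 90% there was close to that of the other arrays. Among kept miR-224 spots, the share that the program marked as positive and significant was 15.8% in early arousal, with 35.0% in late torpor and 15.8% in post-reproduction. Among all negative control spots, outliers included, it was 36.0%, 50% and 36.0%. Entries for viral miRNAs, which liver RNA should lack, were at background too, except for mghv-miR-M1-2, detected on every array, and mghv-miR-M1-8, detected in late torpor. The brightest viral entry averaged 18.2 units in early arousal, 23.4 units in late torpor and 22.1 units in post-reproduction. miR-452 averaged 39.7 ± 5.96, 32.8 ± 5.07 and 21.1 ± 4.03 units over the spots of both probes (SD, 20, 19 and 18 spots). Detection at such intensities does not by itself show that the named miRNA was the one bound, and whether other RNA bound the miR-452 probes was not tested.

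One spot of miR-224 stood apart. In early arousal a spot of the 20-base probe had 180 units and was marked as an outlier by the scanner program, while the 4 other spots of that probe on the array lay between -3.17 and 2.31 units. With this spot kept, the mean of miR-224 in early arousal was 9.27 units in place of 0.266. The spot at the same place had 5.21 units in late torpor and -1.55 units in post-reproduction.

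**Figure D4:**
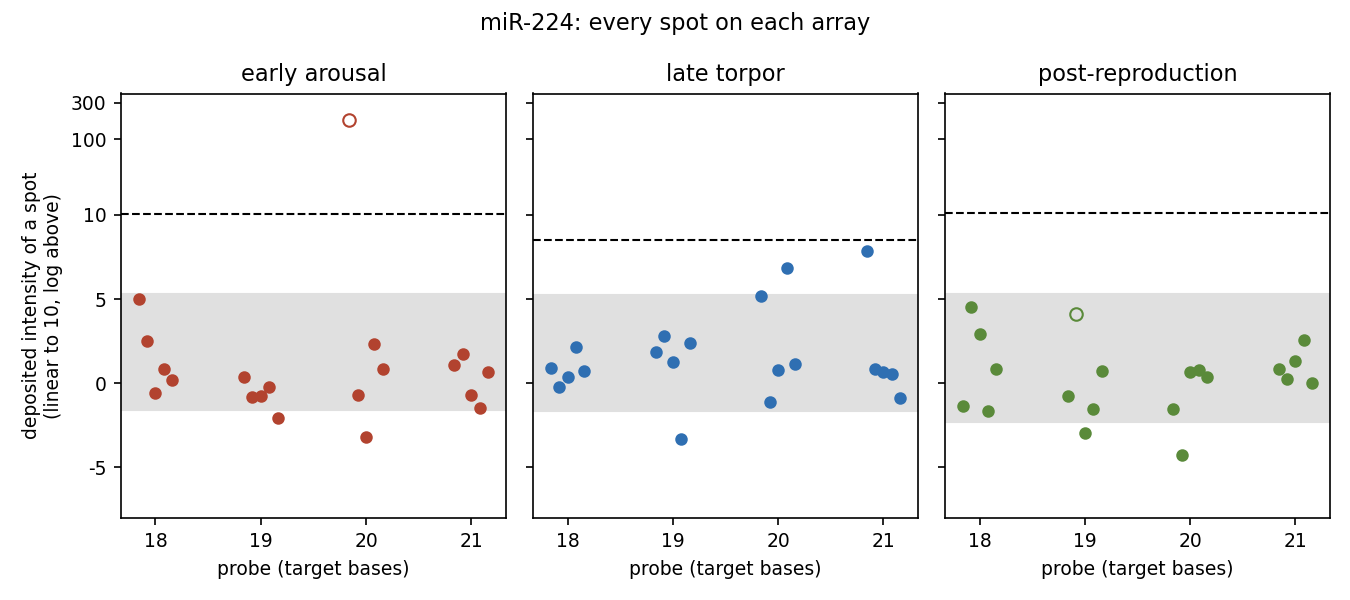
Deposited intensity of every miR-224 spot (y axis, linear to 10 and logarithmic above) for its 4 probes (x axis, target bases) on each array. Filled points are kept spots, open points are spots left out as outliers, the grey band is the middle 90% of negative control spots, and the dashed line is the lowest signal of a miRNA spot well above background (10.1, 8.49 and 10.7 units from left to right). All kept spots lie under the dashed line, and the left-out early arousal spot is at 180 units.

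The measured miRNAs whose pattern over the 3 arrays was most like that of miR-452 were miR-494, miR-31* and miR-574-5p. Likeness was the Euclidean distance between the 3 scaled log2 values after each miRNA was centred on its own mean, and it was 0.12 for miR-494, 0.29 for miR-31* and 0.36 for miR-574-5p, with a median of 0.77 over all the others. With 3 arrays such a distance is a description only. miR-494 is encoded in the imprinted Dlk1-Dio3 cluster, and its differences were 1.26 ± 0.03 in early arousal over post-reproduction, 0.83 ± 0.03 in late torpor over post-reproduction and 0.43 ± 0.02 in early arousal over late torpor. miR-31*, the passenger strand of miR-31, had 0.77 ± 0.04, 0.86 ± 0.04 and -0.092 ± 0.03 in the same order of comparisons. miR-574-5p had 0.69 ± 0.04, 0.36 ± 0.05 and 0.33 ± 0.03. All 3 were higher in early arousal than in post-reproduction, which follows from their choice by likeness to miR-452. Of the 3, miR-494 alone passed the rule of size in that comparison. miR-224 could not be placed, since it had no detected probe.

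**Figure D5:**
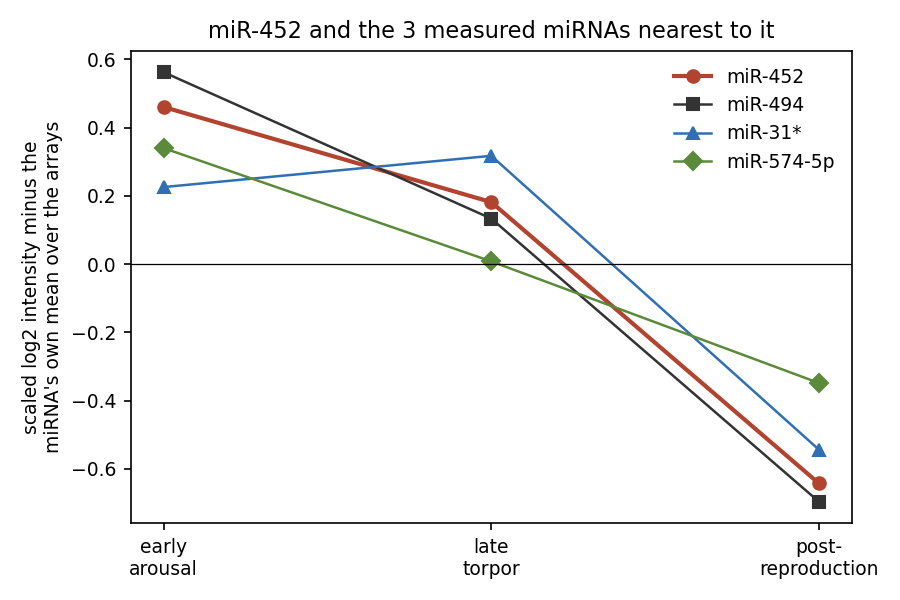
Scaled log2 intensity of miR-452 and its nearest 3 measured miRNAs on each array, less each miRNA's own mean over the arrays (y axis), for early arousal, late torpor and post-reproduction (x axis). miR-452 runs over 0.46, 0.18 and -0.64, miR-494 over 0.56, 0.13 and -0.70. All 4 are lowest in post-reproduction, which the choice by likeness to miR-452 favours.

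Other entries of chromosome X were mostly not detected. Of 79 such mouse entries, 65 were detected on no array, and 13, 14 and 11 were detected in early arousal, late torpor and post-reproduction. Of all 567 mouse entries, 152, 158 and 143 were detected in the same order of stages, so most entries of the whole array went undetected too. The chromosome X entries nearest to the pair were miR-105 at a distance of 329 kb, miR-718 at 1762 kb and miR-509-5p at 4243 kb, each detected on no array. The 11 measured ones had a median difference of 0.14 in early arousal over post-reproduction (range -0.98 to 0.47), 0.18 in late torpor over post-reproduction (-0.42 to 0.67) and -0.25 in early arousal over late torpor (-1.26 to 0.33), beside medians of 0.062, 0.13 and -0.094 over all measured miRNAs. None of the 11 reached the value of miR-452 in the first and the second comparison, and miR-322 did in the third, where miR-500 at -1.26 ± 0.08 passed the rule of size as lower. The brightest by the mean over the arrays was miR-223, a myeloid miRNA, at 0.19 ± 0.02, 0.67 ± 0.02 and -0.49 ± 0.02. The median entry by brightness was miR-222, an endothelial miRNA, at -0.71 ± 0.04, -0.42 ± 0.04 and -0.29 ± 0.04. The dimmest was miR-322, which acts on cell cycle genes, at 0.45 ± 0.12, 0.12 ± 0.12 and 0.33 ± 0.10. Entries detected on some arrays only are not among the 11. Of these, miR-188-5p averaged 19.0, 11.3 and 5.20 unscaled units in early arousal, late torpor and post-reproduction, the same order as miR-452. It was detected in early arousal and late torpor only, so that order rests on an undetected value in post-reproduction. miR-532-3p averaged 3.32, 2.26 and 2.32 units, and miR-878-3p 8.01, 7.59 and 7.50 units.

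miR-224 and miR-452 are often listed with other miRNAs that are high in liver tumours or dividing hepatocytes. Beside 135 measured of all 567 mouse entries, 9 of 21 such entries were measured and 10 were detected on no array. Their median difference was 0.15 in early arousal over post-reproduction with 5 of 9 above 0, 0.33 in late torpor over post-reproduction with 6 of 9 above 0, and -0.24 in early arousal over late torpor with 1 of 9 above 0. Of all 135 measured miRNAs, 75, 88 and 47 were above 0 in the same order of comparisons, so the list's counts in the first and the second lay near the background. None of them passed the rule of size in any comparison. The brightest by the mean over the arrays was miR-21, an oncogenic miRNA, at 0.17 ± 0.01, 0.37 ± 0.01 and -0.19 ± 0.01. The median entry was miR-151-5p at -0.051 ± 0.02, -0.0099 ± 0.03 and -0.041 ± 0.02, and the dimmest was miR-222, given above. These medians and signs shift with the scaling of whole arrays by the same amount as the median of all measured miRNAs.

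Markers of liver cell types were read beside the pair. All 7 hepatocyte miRNAs were measured, with a summed intensity of 42572 units in early arousal, 48437 units in late torpor and 42088 units in post-reproduction, and with median differences of 0.16, 0.30 and -0.033 in the order of the comparisons above. The 3 red blood cell miRNAs summed to 1923, 3273 and 1548 units, with median differences of 0.53, 1.31 and -0.76. Markers of the labelled tissue were thus present on each array, and those of red blood cells were highest in late torpor, where all 3 passed the rule of size over post-reproduction. The 5 measured of 6 leukocyte miRNAs, without miR-155, summed to 416, 591 and 484 units, with medians of -0.22, 0.41 and -0.63. The 4 endothelial miRNAs summed to 1171, 1289 and 1280 units, with medians of -0.11, 0.024 and -0.18, and the 5 mesenchymal ones to 257, 290 and 337 units, with medians of -0.013, -0.016 and -0.091. Of 5 epithelial and bile duct miRNAs, miR-200a and miR-200b were measured, with sums of 41.6, 36.0 and 66.1 units and medians of -0.53, -0.75 and 0.22, while miR-141, miR-200c and miR-429 were detected on no array. The summed intensities of the hepatocyte list were highest in late torpor, but the signs of its medians turned with the way of processing. With the median of detected probes they were 0.20, 0.19 and 0.12, and with the summed intensity 0.078, 0.076 and 0.11. With the program totals they were 0.097, 0.080 and 0.074. In these 3 of 13 alternatives alone, and not as reported above, all the medians were above 0, as the differences of miR-452 were. The medians of 1 setting can come from different miRNAs, so they give no order of stages. The part of cell makeup in the difference of miR-452 was not tested.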

How the data were processed

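Pools of arctic ground squirrel liver RNA, 1 per stage, were hybridised to 1 array each. Per the file headers and the submitters' processing notes, Agilent Feature Extraction 9.5.3.1 read the arrays. Per the file headers, the deposited intensity is a spot's signal less a fitted spatial trend, with no step between arrays, and the deposited flags (other values) mark detection, outliers and saturation. At all 12493 spots of each array, the series table that the authors deposited repeats this intensity. Here outlier spots were left out (398, 280 and 317 of 11540 miRNA spots for early arousal, late torpor and post-reproduction), and intensities at or below 0 were set to the lowest signal well above background. That step touched no detected probe of miR-452. log2 values were averaged and scaled with Python 3.11.15 and numpy 2.4.6, and normexp came from limma 3.58.1 in R 4.3.3. An SE combines the spot variances of the probes, and it holds spot spread only. The code was tested on simulated spots, all positive, well above background and with no outliers, under the median scaling. That left the reported percentile scaling, the detection and outlier steps and the setting of low intensities untested. The number of arrays limits the precision. The members, lists and settings were chosen with earlier results of these data known. The miRNAs named beside the members are the 3 nearest in pattern, the 3 nearest on chromosome X, and, by mean intensity over the arrays, the brightest, median and dimmest measured entry of the chromosome X and tumour lists. Neighbours in rank, miR-500, chromosome X entries detected on some arrays only, viral entries and undetected markers were named after their values were seen.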

Additional observations from a re-analysis of the deposited data

Results flagged for a closer look

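A single spot of miR-224 carried a signal that the comparisons above leave out. On the early arousal array it had 180 intensity units, against a middle 90% of -1.62 to 5.29 units in the negative control spots of that array. The scanner program had marked it as an outlier among the 5 spots of its probe. Its 8 neighbours on the array lay between -4.88 and 12.5 units. The spots at the same place had 5.21 units on the late torpor array and -1.55 units on the post-reproduction array. What the spot held was not tested.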

How the results depend on the processing

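miR-452 was above 0 in each comparison under all 17 alternatives (10 planned, 7 chosen after seeing the data). Values outside the 95% spot interval of the reported difference were as follows, in the order early arousal over post-reproduction, late torpor over post-reproduction and early arousal over late torpor. Normexp gave 0.46, 0.38 and 0.083. The 75th percentile over all mouse probes gave 0.75 in the first of them and 0.030 in the last, and its linear form 0.90, 0.43 and 0.46. Over post-reproduction, values without scaling were 0.92 and 0.63, and with strict detection 0.84 and 0.59. In the comparisons with late torpor, the program totals gave 0.60 and 0.42, and the summed intensity 0.60 and 0.42. The median scaling gave 0.43 for early arousal over late torpor. By construction, normexp adds 50 units to each spot. The percentile over all mouse probes, its linear form, no scaling, the summed intensity and the median scaling differ from the reported scaling by a shift of whole arrays. Strict detection kept both miR-452 probes and changed only the set of probes behind the percentile, again a shift of whole arrays for miR-452. For the program totals the cause was not tested.

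The count of miRNAs past the rule of size moved by over 1.5 times in some settings. In early arousal over post-reproduction the 5 became 10 with the percentile over all mouse probes, 10 with the program totals and 2 with normexp. In late torpor over post-reproduction the 3 became 1 with normexp, 5 with strict detection, 7 with the program totals and 7 with the linear percentile. In early arousal over late torpor the 4 became 0 with normexp. miR-224 had no difference under any setting, since no probe was detected. No paired analysis was possible because each stage has 1 array, and for the same reason no array could be left out.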
